A study of Mus musculus with 12 samples.

Results

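Molecular chaperones were read in sorted mouse blood progenitors across 3 drug comparisons. The set held the 83 genes, of 55487 in the tables, whose symbol marks a heat shock protein of the HSP70, HSP90, HSP110, small HSP, HSP60 or HSP10 type, a J-domain protein of the DNAJA, DNAJB or DNAJC group, a subunit of the CCT chaperonin, or the heat shock factor Hsf1. Symbols ending in -ps, with or without a number after it, were left out as pseudogenes, which removed 15. The symbols chose the genes and no measured value did.

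RNA selected for polyA was sequenced from LSK cells, the Lin-negative, Sca-1-positive and Kit-positive cells of bone marrow that include stem cells and multipotent progenitors. The groups were palbociclib, an inhibitor of the cell cycle kinases CDK4 and CDK6; ruxolitinib, an inhibitor of the kinases JAK1 and JAK2; the combination of both drugs; and vehicle, with 3 libraries each. Cells of every group were C57BL/6, were labelled as homozygous for JAK2V617F, an activating mutation of the kinase JAK2 that drives myeloproliferative neoplasms, and came from a source named BMT LSK cells, lineage-depleted on magnetic columns before the sort. The question was what each drug, and both together, changed in mutant progenitors. No group without the mutation was analysed here, and no dose or time was given in the sources used here.

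Chaperones keep newly made and damaged proteins from clumping and help them fold. HSP70 proteins bind short exposed stretches of a client, J-domain proteins bring the client and trigger ATP hydrolysis, and HSP110 proteins release the spent nucleotide so that the cycle can start again. HSP90 acts later, on nearly folded clients, and with the adaptor Cdc37 it holds many kinases, among them CDK4, CDK6 and JAK2, the targets of both drugs. The ring-shaped CCT chaperonin folds actin, tubulin and WD40 proteins, and mitochondria and the endoplasmic reticulum (ER) have chaperones of their own. Hsf1 is the transcription factor that switches on the inducible chaperones when unfolded protein accumulates.

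The fold changes, standard errors (SE) and p-values adjusted by Benjamini-Hochberg (BH) against vehicle are those of the authors' deposited tables of a DESeq2 fit. A call was an adjusted p under 0.05. Values per sample were not used here. In their place stand group levels in normalised reads, solved from the deposited errors and given with 95% intervals. The 3 comparisons share the vehicle libraries, and their calls are set side by side. Differences between the arms were tested separately, as given below. The libraries held 18.2 to 44.7 M reads in genes, as implied by the tables. Nothing in the labels ties each library to its own animal, and the p-values then measure only the spread between these libraries, which may be technical. In bulk RNA, fewer cells of a type and less RNA per cell cannot be told apart. Markers of other cells moved with the groups: the summed level of 13 plasma cell markers was 43088, 8168, 766446 and 16038 normalised reads with palbociclib, ruxolitinib, the combination and vehicle, and that of 10 neutrophil markers was 7460, 97.7, 1563 and 407. The 4 Y-linked genes read, lower in 4 of 4 with palbociclib and with the combination, summed to 10.9, 2670, 5.35 and 1081 normalised reads in the same order, and the origin of the cells and these drugs cannot be told apart. Of 9 erythroid markers, 6 were higher and 1 was lower in the combination. Of the genes of the sort, Ly6a rose with palbociclib and the combination and Kit rose with the combination.

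Of the 83 chaperone genes, 2 had no read, 7 were tested in no comparison, 69 were tested with palbociclib and ruxolitinib, and 76 with the combination. With palbociclib 3 were higher and 1 was lower, 5.80% of those tested, beside 8.63% of all 15448 genes tested (4.98% higher and 3.64% lower). With ruxolitinib 0 of 69 passed the authors' DESeq2 test, beside 2.96% of all genes, and 4 had an unadjusted p under 0.05. With the combination 8 were higher and 10 were lower, 23.7% of 76, beside 23.0% of all 19228 genes (12.9% higher and 10.2% lower). The share called was thus below that of all genes with palbociclib and ruxolitinib and close to it with the combination. When the combination was rescaled to the summed level of vehicle, a shift of 0.08 on the log2 scale, 5 were higher and 18 lower of 76, beside 25.3% of all genes called under the same scaling. This rescaling lowers the fold change of every gene alike. The shares of all genes higher and lower under it are not given here, so the 18 are not read as particular to chaperones. The summed level was 3.09e+07 normalised reads with the combination and 2.92e+07 with vehicle. It includes the 13 plasma cell markers, at 766446 and 16038. The part of plasma cell RNA in this shift, and so in calls made after the rescaling, was not tested.

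The members that rose and those that fell in the combination differed in abundance. The 8 that rose had base means (the authors' average of normalised counts across every library they fitted) between 14.5 and 1094, with a median of 463. Those that fell ran from 36.0 to 17508, with a median of 2840. Among the 44 members with a base mean of at least 1000, 38 were below 0 in the combination, with a median log2 fold change of -0.22. Over all 6344 genes tested at that level 4127 were below 0, with a median of -0.14. Of the 44 members, 1 was higher and 8 were lower, beside 32.3% of all such genes called, 9.10% higher and 23.2% lower. Among the same abundant members, 2 passed with palbociclib, 1 each way, beside 8.95% of all such genes (3.20% higher and 5.75% lower). With ruxolitinib 0 passed the authors' DESeq2 test and 1 had an unadjusted p under 0.05, beside 2.60% of all such genes called. All members together took 1.79%, 1.84%, 1.49% and 1.82% of the summed level of all genes with palbociclib, ruxolitinib, the combination and vehicle. That summed level includes the plasma cell markers, which were highest with the combination.

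**Figure D1:**
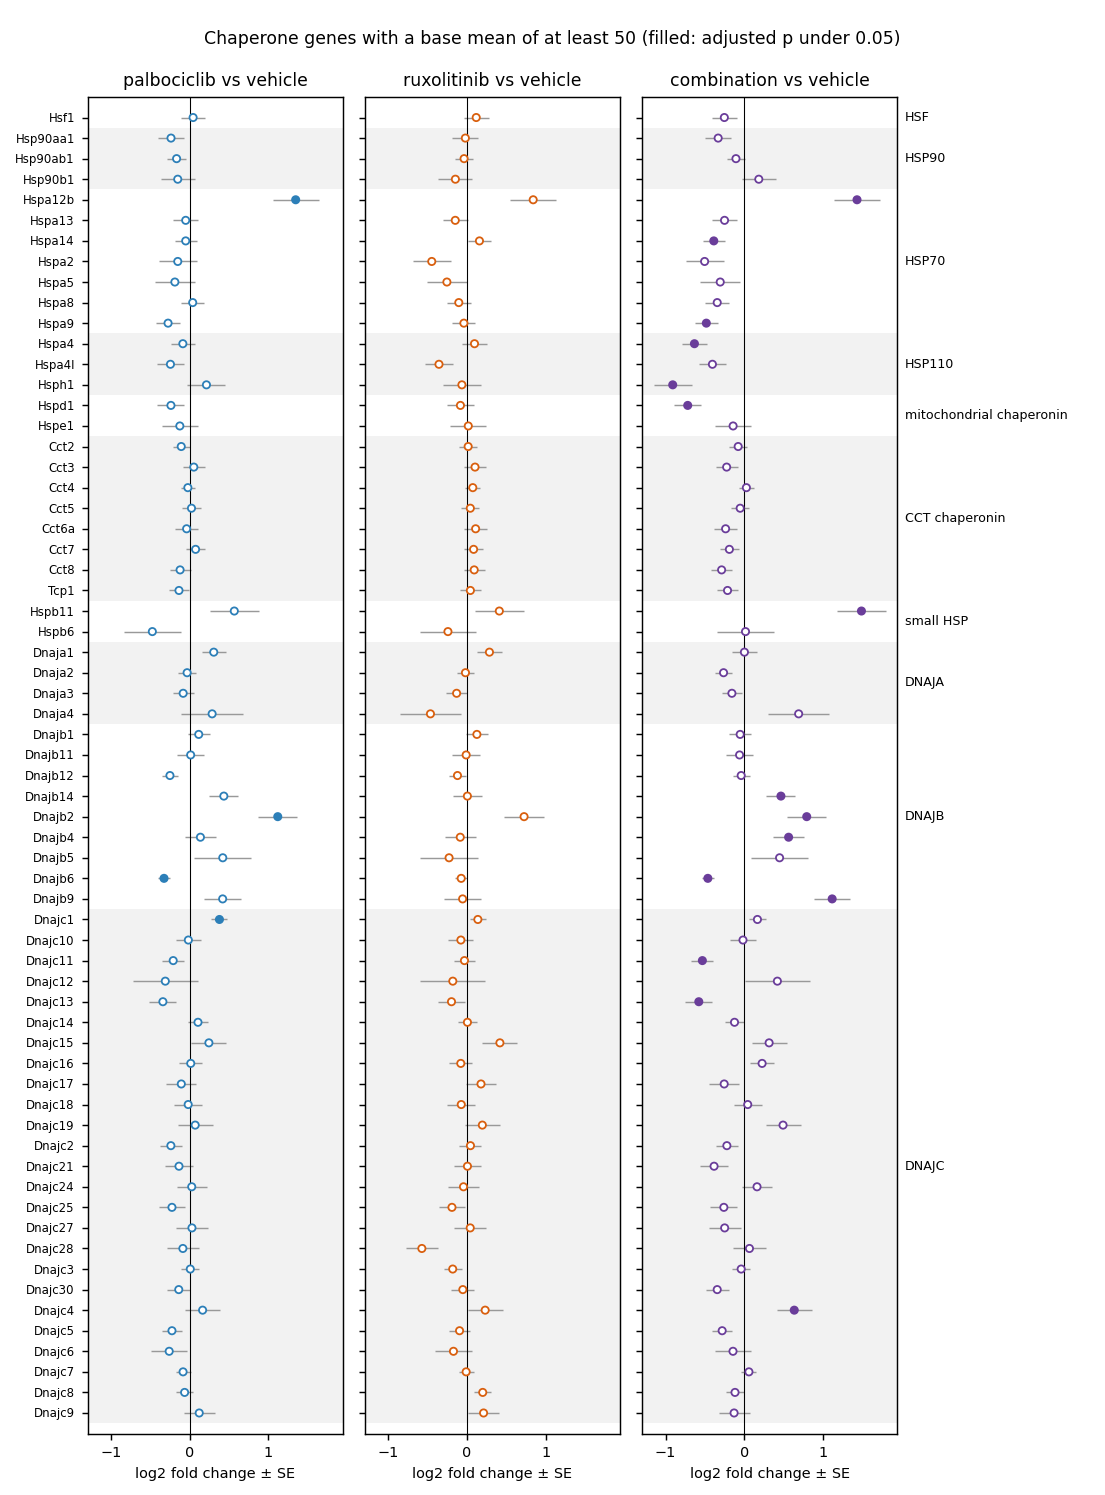
Log2 fold change against vehicle, with its standard error, of 64 chaperone genes with a base mean of at least 50, one panel for each drug comparison and the families marked at the right. Filled points have an adjusted p under 0.05: 4 with palbociclib, none with ruxolitinib; Hspa1b, far below the others in the combination, is left out so that the axis can be read.

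**Figure D2:**
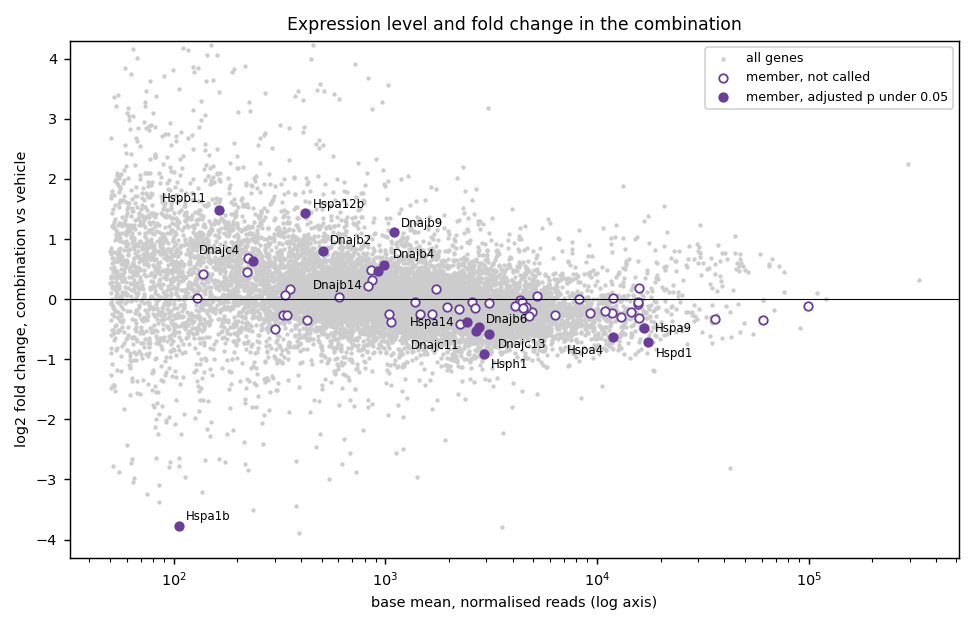
Log2 fold change in the combination against the base mean (log axis) for all tested genes with a base mean of at least 50 (grey) and the chaperone genes among them (open, not called; filled, adjusted p under 0.05). The labelled genes that fell sit mostly to the right of those that rose, and points beyond 4.3 either way are outside the plot.

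Hsf1 itself, on chromosome 15 at 76477422 to 76501913 of GRCm38, did not pass in any comparison. Its level was 1717 normalised reads with palbociclib, 1808 with ruxolitinib and 1398 with the combination, against 1667 with vehicle. These intervals overlap. In the authors' deposited tables its log2 fold changes were 0.04 ± 0.16, 0.12 ± 0.16 and -0.25 ± 0.16 with palbociclib, ruxolitinib and the combination (SE; BH-adjusted p = 0.921, 0.855 and 0.243). Hsf2, a related heat shock factor, did not pass with ruxolitinib, at 0.55 ± 0.17 in the authors' deposited table (BH-adjusted p = 0.056). Of the 9 tested heat shock factors and stress-inducible genes outside the set, Hmox1, which encodes the heme-degrading enzyme heme oxygenase, and Serpinh1, which encodes the collagen chaperone HSP47, passed. They are 22.2% of the 9 with palbociclib and with the combination, beside 8.63% and 23.0% of all genes called. In the authors' deposited tables Hmox1 rose by 1.93 ± 0.58 with palbociclib and by 2.73 ± 0.57 with the combination, and Serpinh1 by 2.77 ± 0.90 and 3.65 ± 0.89 (BH-adjusted p = 0.017, 8.5e-05, 0.031 and 0.00088). The list's median was 0.22, 0.10 and 0.33 with palbociclib, ruxolitinib and the combination.

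Hsf1 binds inverted repeats of the unit GAA, so the promoters were searched for them. A window from 250 bases before to 50 after the start of a transcript was held for 66 of the 83 genes (RefSeq, GRCm38.p6). A triplet of adjoining units, GAANNTTC continued by NNGAA or TTCNNGAA continued by NNTTC, on either strand, stood in 0.603% of all 32851 windows and in those of 4 members: Hsph1, Hspd1, Hspe1 and Dnajb6. In the combination 3 of these 4 were lower, Hsph1, Hspd1 and Dnajb6, and Hspe1 did not pass. Of all genes 12.9% were higher and 10.2% lower in the combination, and 9.10% and 23.2% of those with a base mean of at least 1000. The genes Hspd1 and Hspe1 lie head to head, and their matches are the same bases read on opposite strands. Some genes have several windows, and 1 of the 2 of Hspd1 holds the triplet. The pair of units GAANNTTC stood in 7.86% of all windows and in those of 15 members, of which 13 were tested in the combination, with 1 higher and 5 lower. Of the 8 members with TTCNNGAA, found in 8.52% of all windows, 1 was higher and 3 were lower. The counts for both pairs stand beside the same shares of all genes in the combination. The pairs also lie inside the triplets. The ER stress element, CCAAT and CCACG with 9 bases of any kind between them, on either strand, stood in 0.119% of windows and in those of 3 members, Hspa5, Hsp90b1 and Dnajc3, of which 0 passed the authors' DESeq2 test in any of the 3 comparisons, and 0 had an unadjusted p under 0.05.
The windows of 3 genes with the triplet that fell in the combination are shown first, then that of the stress-inducible Hspa1b with a pair, and that of the ER chaperone Hspa5 with the ER stress element. Capitals mark the motif, which lay at 15 to 27, -144 to -127, -46 to -34, -104 to -97 and -65 to -47 from the start, in the order of the lines, with the start base as 0.
Hsph1 (chr5:149636266-149636565, minus strand): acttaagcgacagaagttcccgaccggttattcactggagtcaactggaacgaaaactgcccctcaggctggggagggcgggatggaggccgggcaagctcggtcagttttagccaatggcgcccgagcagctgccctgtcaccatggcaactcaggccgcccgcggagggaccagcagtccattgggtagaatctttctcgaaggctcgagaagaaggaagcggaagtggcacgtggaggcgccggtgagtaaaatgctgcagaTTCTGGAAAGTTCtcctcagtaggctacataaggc
Hspd1 (chr1:55087883-55088182, minus strand): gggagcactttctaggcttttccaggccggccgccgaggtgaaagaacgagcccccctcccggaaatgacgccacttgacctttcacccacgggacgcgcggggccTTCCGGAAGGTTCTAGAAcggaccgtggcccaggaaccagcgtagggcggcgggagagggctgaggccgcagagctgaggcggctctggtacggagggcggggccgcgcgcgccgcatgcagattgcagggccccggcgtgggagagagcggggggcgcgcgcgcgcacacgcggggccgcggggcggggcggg
Dnajb6 (chr5:29735648-29735947, plus strand): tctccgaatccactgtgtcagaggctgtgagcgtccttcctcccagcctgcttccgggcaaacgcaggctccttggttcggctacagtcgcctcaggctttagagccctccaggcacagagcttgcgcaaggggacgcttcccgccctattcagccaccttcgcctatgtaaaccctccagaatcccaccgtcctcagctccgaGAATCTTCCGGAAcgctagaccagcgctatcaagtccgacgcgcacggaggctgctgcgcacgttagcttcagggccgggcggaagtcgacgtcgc
Hspa1b (chr17:34959189-34959488, minus strand): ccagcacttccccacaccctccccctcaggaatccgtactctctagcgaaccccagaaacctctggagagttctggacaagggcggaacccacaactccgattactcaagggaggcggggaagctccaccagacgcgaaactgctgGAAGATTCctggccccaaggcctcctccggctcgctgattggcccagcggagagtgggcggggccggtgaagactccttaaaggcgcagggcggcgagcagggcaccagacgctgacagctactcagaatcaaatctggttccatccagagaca
Hspa5 (chr2:34771840-34772139, plus strand): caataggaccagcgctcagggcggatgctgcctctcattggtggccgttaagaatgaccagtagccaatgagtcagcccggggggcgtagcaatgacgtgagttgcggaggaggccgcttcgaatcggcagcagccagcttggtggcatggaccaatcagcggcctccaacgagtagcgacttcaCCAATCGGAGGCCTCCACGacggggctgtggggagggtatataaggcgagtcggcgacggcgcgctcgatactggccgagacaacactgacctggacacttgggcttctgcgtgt
A match describes the letters of the window and says nothing of binding in these cells.

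Among the HSP70 genes, the stress-inducible pair Hspa1a and Hspa1b had the largest falls of all members. Hspa1b was at 37.8 normalised reads with palbociclib (95% interval 12.8 to 111), 85.3 with ruxolitinib (29.3 to 249) and 17.2 with the combination (5.70 to 52.0), against 235 with vehicle (81.0 to 682). The intervals of the combination and vehicle do not overlap, and those of the single drugs overlap vehicle. Hspa1b fell by 3.77 ± 1.13 on the log2 scale in the combination in the authors' deposited table (BH-adjusted p = 0.00733). Hspa1a was at 5.31 normalised reads with palbociclib (1.01 to 28.0), 14.3 with ruxolitinib (2.85 to 71.8) and 0.215 with the combination (0.0226 to 2.05), against 66.7 with vehicle (13.6 to 327). The combination value is under the floor of 3 reads over the 3 libraries, 1.08 normalised reads, and that floor is 61.6-fold below the modelled vehicle level, a ratio that leaves out the width of both intervals. Hspa1a was called lower; the authors' deposited table lists -8.28 ± 2.03 (BH-adjusted p = 0.000875), which is no bound. With palbociclib the authors' deposited table gave -3.65 ± 1.69 for Hspa1a and -2.64 ± 1.12 for Hspa1b, and neither passed (BH-adjusted p = 0.171 and 0.122). The 2 genes are near-identical copies on chromosome 17, so how reads were split between them is uncertain, and 19.0% of the exon bases of Hspa1a are shared with a gene on the other strand. Both are scarce, and whether 1 vehicle library carried their level was not tested. Immediate early genes, which respond to handling of cells, stood beside them as follows: of 9 tested in the combination, Atf3 was called lower in the authors' deposited table (BH-adjusted p = 0.026) and 8 did not pass. Atf3 was itself scarce, at 0.215 normalised reads with the combination, under the floor, against 6.02 with vehicle. Fos was at -1.99, -0.22 and -1.46 and Jun at -1.88, -0.07 and -1.79 with palbociclib, ruxolitinib and the combination in the authors' deposited tables, and neither passed in any. In the combination 5 of the 9 were below 0 and 4 above 0: Egr1, Ier2, Junb and Dusp1. Egr1 was at 273 normalised reads with the combination, against 165 with vehicle, and Ier2 at 1574, against 1275. The 9 genes summed to 3533, 4282 and 3696 normalised reads with palbociclib, ruxolitinib and the combination, against 3673 with vehicle, and their part in the Hspa1a and Hspa1b result was not tested.

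The constitutive cytosolic HSP70, Hspa8, was the second most abundant member per kilobase of exon, at 16166, 14650 and 12409 normalised reads per kilobase with palbociclib, ruxolitinib and the combination, against 15754 with vehicle. It did not pass as deposited: the authors' deposited table gave -0.34 ± 0.15 in the combination (BH-adjusted p = 0.0783), and after rescaling to equal summed levels it was lower (BH-adjusted p = 0.0233). Hspa14, which pairs with the J-domain protein Dnajc2 on the ribosome, was at 2555, 2954 and 2023 normalised reads with palbociclib, ruxolitinib and the combination, against 2648 with vehicle. It fell by 0.39 ± 0.14 in the combination in the authors' deposited table (BH-adjusted p = 0.0319). Its partner Dnajc2 did not pass, at -0.22 ± 0.14 in the authors' deposited table (BH-adjusted p = 0.255). Hspa12b, a distant HSP70 relative described in endothelial cells, moved the other way. Its level was 546 normalised reads with palbociclib (413 to 721), 384 with ruxolitinib (290 to 509) and 580 with the combination (438 to 766), against 215 with vehicle (161 to 285). The intervals of all 3 drug groups lie above that of vehicle. In the authors' deposited tables it rose by 1.35 ± 0.29 with palbociclib and by 1.43 ± 0.29 with the combination (BH-adjusted p = 0.000371 and 5.1e-05), and was at 0.84 ± 0.29 with ruxolitinib (BH-adjusted p = 0.0977). Over the whole family, 1 of 10 tested genes was higher and 4 were lower in the combination, with a median of -0.37, beside 12.9% of all genes higher and 10.2% lower.

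All 3 HSP110 genes, the nucleotide exchange factors of HSP70, were below 0 in the combination, and 2 of 3 passed. Beside them, 10.2% of all genes were lower, and 23.2% of those with a base mean of at least 1000, of which 4127 of 6344 were below 0. Hsph1, also known as HSP105, was at 3916 normalised reads with palbociclib (3105 to 4939), 3231 with ruxolitinib (2562 to 4076) and 1799 with the combination (1424 to 2271), against 3381 with vehicle (2681 to 4264). The combination interval lies below that of vehicle, and those of both single drugs overlap it. Hsph1 fell by 0.91 ± 0.24 on the log2 scale in the combination in the authors' deposited table (BH-adjusted p = 0.00232). Hspa4 was at 12998, 14757 and 8901 normalised reads with palbociclib, ruxolitinib and the combination, against 13816 with vehicle. It fell by 0.63 ± 0.15 in the combination in the authors' deposited table (BH-adjusted p = 0.000787), and was at -0.09 ± 0.15 and 0.10 ± 0.15 with palbociclib and ruxolitinib (BH-adjusted p = 0.808 and 0.893). Hspa4l was at -0.25 ± 0.18, -0.36 ± 0.18 and -0.41 ± 0.18 in the authors' deposited tables and passed in none (BH-adjusted p = 0.442, 0.364 and 0.0783). Among 11 other partners of HSP70, Bag6, Ubqln1 and Ubqln4, which pass clients on for degradation, were lower in the combination, while 8 passed in neither direction. They stood in the authors' deposited table at -0.45 ± 0.13, -0.45 ± 0.11 and -0.52 ± 0.16 (BH-adjusted p = 0.0064, 0.00057 and 0.009), and 0 of the 11 passed with either drug alone, with 0 and 1 at an unadjusted p under 0.05 with palbociclib and ruxolitinib. The shares of all genes called with these single drugs were 8.63% and 2.96%.

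**Figure D3:**
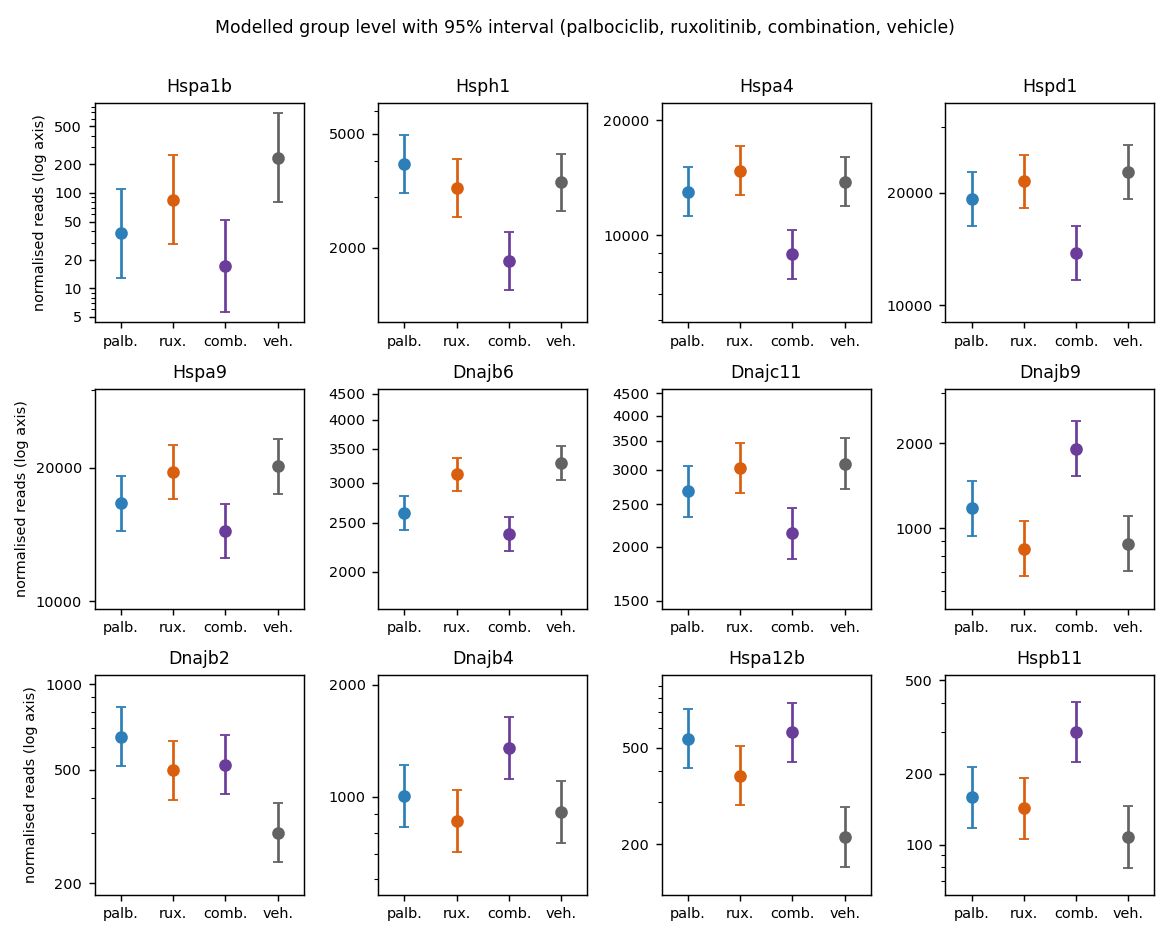
Modelled level in normalised reads (log axis, 95% interval) of 12 chaperone genes with palbociclib, ruxolitinib, the combination and vehicle. Hsph1, Hspa4 and Hspd1 are lowest with the combination, with intervals below that of vehicle, while Hspa12b and Dnajb2 are lowest with vehicle.

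None of the 3 HSP90 genes passed the authors' DESeq2 test in any comparison, with 1 unadjusted p under 0.05, that of Hsp90aa1 in the combination. Beside them, 8.95%, 2.60% and 32.3% of all genes with a base mean of at least 1000 were called with palbociclib, ruxolitinib and the combination. Hsp90ab1, the constitutive cytosolic form and the most abundant member per kilobase, was at 97916, 107156 and 102189 normalised reads with palbociclib, ruxolitinib and the combination, against 109987 with vehicle. Its log2 fold changes were -0.17 ± 0.12, -0.04 ± 0.12 and -0.11 ± 0.12 in the authors' deposited tables. The inducible cytosolic form, Hsp90aa1, was at 37152, 43192 and 34818 normalised reads with palbociclib, ruxolitinib and the combination, against 43836 with vehicle. It was at -0.33 ± 0.16 in the combination in the authors' deposited table (BH-adjusted p = 0.129) and was lower after rescaling to equal summed levels (BH-adjusted p = 0.0477). Of the kinase genes whose products these drugs inhibit, Cdk6 fell by 0.73 ± 0.20 in the combination in the authors' deposited table (BH-adjusted p = 0.0025), and Cdk4, Jak1 and Jak2 did not pass. Among 17 co-chaperones of HSP90, all 17 were above 0 with ruxolitinib with a median of 0.10 and 0 passed, 1 of them at an unadjusted p under 0.05. In the combination 11 of 17 were below 0, with a median of -0.16. Of all 6344 tested genes with a base mean of at least 1000, 2894 were above 0 with ruxolitinib and 4127 below 0 with the combination. Stip1, the adaptor that links HSP70 to HSP90, was at 7958, 8491 and 5338 normalised reads with palbociclib, ruxolitinib and the combination, against 8028 with vehicle. It fell by 0.59 ± 0.17 in the combination in the authors' deposited table (BH-adjusted p = 0.0041). Ahsa2, a relative of the HSP90 activator Ahsa1, rose by 0.49 ± 0.12 with palbociclib and by 0.34 ± 0.12 with the combination in the authors' deposited tables (BH-adjusted p = 0.0016 and 0.026). The kinase adaptor Cdc37 was at 0.12 ± 0.19, 0.19 ± 0.19 and -0.06 ± 0.19 in the authors' deposited tables and passed in none.

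None of the 9 CCT genes passed the authors' DESeq2 test in any comparison, with 1 unadjusted p under 0.05, that of Cct8 in the combination. The 8 abundant subunits, Tcp1, Cct2, Cct3, Cct4, Cct5, Cct6a, Cct7 and Cct8, lay between -0.14 and 0.07 with palbociclib, between 0.01 and 0.11 with ruxolitinib and between -0.29 and 0.03 with the combination in the authors' deposited tables (log2 fold change). Their 95% intervals reached from -0.39 to 0.32, from -0.21 to 0.40 and from -0.55 to 0.21, and larger shifts of a subunit fall outside them. With ruxolitinib 8 of 8 were above 0, beside 2894 of all 6344 tested genes with a base mean of at least 1000. With the combination 7 of 8 were below 0, with a median of -0.20, beside 4127 of those 6344 and a median of -0.14. Cct8 was the lowest, at 13404, 15551 and 11954 normalised reads with palbociclib, ruxolitinib and the combination, against 14600 with vehicle. Its log2 fold change in the combination was -0.29 ± 0.13 in the authors' deposited table (BH-adjusted p = 0.105), and it was lower after rescaling to equal summed levels (BH-adjusted p = 0.0291). Cct4 was at 12156, 13006 and 12593 normalised reads with palbociclib, ruxolitinib and the combination, against 12363 with vehicle. Cct6b, a testis-enriched subunit, had 4.19, 17.1 and 11.0 normalised reads with palbociclib, ruxolitinib and the combination, against 6.54 with vehicle. Of 11 helpers of the chaperonin, the prefoldin subunit Pfdn5 and the phosducin-like Pdcl3 rose in the combination, as did Pdrg1, a partner in prefoldin-like complexes. Their log2 fold changes were 0.67 ± 0.25, 0.42 ± 0.11 and 0.54 ± 0.19 in the authors' deposited table (BH-adjusted p = 0.031, 0.0022 and 0.024), and the list's median was 0.02. Over all genes 12.9% were higher in the combination.

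**Figure D4:**
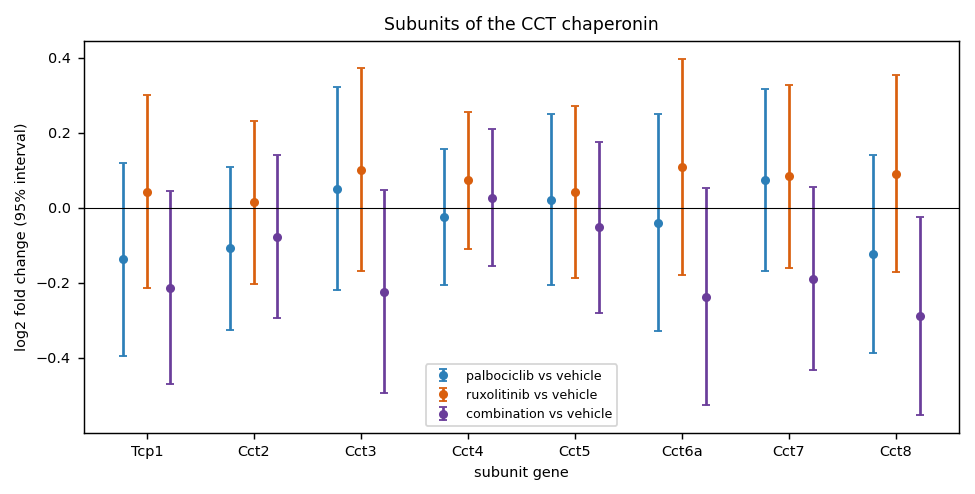
Log2 fold change against vehicle with its 95% interval for the 8 abundant CCT subunits, in palbociclib, ruxolitinib and the combination from left to right within a subunit. All points lie between -0.29 and 0.11; the ruxolitinib points are above 0 for 8 of 8 and the combination points below 0 for 7 of 8.

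Of 8 mitochondrial chaperone genes, 3 were lower in the combination and 5 did not pass, with a median of -0.25, beside 10.2% of all genes lower and 23.2% of those with a base mean of at least 1000. With either drug alone 0 passed the authors' DESeq2 test and 0 had an unadjusted p under 0.05. The shares of all genes called were 8.63% with palbociclib and 2.96% with ruxolitinib. Hspd1, or HSP60, which forms the folding chamber of the matrix, was at 19224 normalised reads with palbociclib (16288 to 22691), 21414 with ruxolitinib (18143 to 25274) and 13784 with the combination (11677 to 16272), against 22699 with vehicle (19233 to 26790). The combination interval lies below the other 3. In the test between arms given below, Hspd1 did not differ between the combination and palbociclib (BH-adjusted p = 0.827). Hspd1 fell by 0.72 ± 0.17 in the authors' deposited table (BH-adjusted p = 0.000661). Its lid Hspe1, or HSP10, which starts beside it on chromosome 1 and runs the other way, was at 4639, 5119.5 and 4588 normalised reads with palbociclib, ruxolitinib and the combination, against 5064 with vehicle. It did not pass, at -0.14 ± 0.23 in the combination in the authors' deposited table (BH-adjusted p = 0.699); whether the pair differed from each other was not tested. The first exons of Hspd1 and Hspe1 share 112 bases on opposite strands, 4.24% and 7.60% of their exon bases. Hspa9, the matrix HSP70 that pulls imported proteins in, was at 16631, 19589 and 14411 normalised reads with palbociclib, ruxolitinib and the combination, against 20140 with vehicle. It fell by 0.48 ± 0.15 in the combination in the authors' deposited table (BH-adjusted p = 0.00852). Dnajc11, a J-domain protein tied to the cristae-shaping complex, was at 2680, 3032 and 2143 normalised reads with palbociclib, ruxolitinib and the combination, against 3102 with vehicle. It fell by 0.53 ± 0.14 in the combination in the authors' deposited table (BH-adjusted p = 0.00197). Among 12 mitochondrial co-chaperones and proteases, Hscb, a J-domain protein of iron-sulfur cluster assembly, rose by 0.41 ± 0.14 and the protease subunit Afg3l2 fell by 0.41 ± 0.14 in the combination in the authors' deposited table (BH-adjusted p = 0.017 and 0.024), with a list median of -0.16.

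In the ER, 2 of 10 chaperone genes rose in the combination and 8 did not pass, with a median of -0.03, beside 12.9% of all genes higher. Dnajb9, a J-domain partner of the ER HSP70 that is induced by unfolded protein in the ER, was at 1178 normalised reads with palbociclib (941 to 1474), 848 with ruxolitinib (677 to 1062) and 1913 with the combination (1530 to 2392), against 882 with vehicle (704 to 1103). The combination interval lies above the other 3. In the test between arms given below, Dnajb9 did not differ between the combination and palbociclib (BH-adjusted p = 0.827). Its log2 fold change in the authors' deposited tables was 1.12 ± 0.23 in the combination (BH-adjusted p = 7.32e-05) and 0.42 ± 0.23 and -0.06 ± 0.23 with palbociclib and ruxolitinib (BH-adjusted p = 0.283 and 0.964). Dnajb14, a J-domain protein of the ER membrane, rose by 0.47 ± 0.18 in the combination in the authors' deposited table (BH-adjusted p = 0.0486). After rescaling to equal summed levels it was at 0.39 and did not pass (BH-adjusted p = 0.108). The abundant ER chaperones did not pass. Hspa5, or BiP, the ER HSP70, was at 17824, 17019 and 16443 normalised reads with palbociclib, ruxolitinib and the combination, against 20328 with vehicle, levels that rest on all 3 deposited errors. Hsp90b1, the ER HSP90, was at 15701, 15755 and 19841 normalised reads with palbociclib, ruxolitinib and the combination, against 17459 with vehicle. Neither passed, at -0.31 ± 0.26 and 0.18 ± 0.22 in the combination in the authors' deposited table (BH-adjusted p = 0.411 and 0.574). Dnajc1, a J-domain protein of the ER membrane, rose with palbociclib by 0.38 ± 0.10 in the authors' deposited table (BH-adjusted p = 0.00693), at 2017 normalised reads, and was at 1709 with ruxolitinib and 1744 with the combination, against 1553 with vehicle.

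Of 18 other ER folding and stress genes tested in the combination, 7 rose, 1 fell and 10 did not pass, with a median of 0.02. Beside them, 12.9% of all genes were higher and 10.2% lower, and 9.10% and 23.2% of those with a base mean of at least 1000. With either drug alone 0 passed the authors' DESeq2 test, with 2 and 0 at an unadjusted p under 0.05 with palbociclib and ruxolitinib. The shares of all genes called were 8.63% and 2.96%. The 7 that rose in the combination were Xbp1, the transcription factor of the ER stress response, Herpud1, Edem1 and Sel1l of ER-associated degradation, the stress-induced Creld2 and Ddit3, and Sil1, an exchange factor of BiP. Xbp1 and Herpud1 stood at 1.49 ± 0.44 and 1.11 ± 0.26 in the combination in the authors' deposited table (BH-adjusted p = 0.0067 and 0.00059). Canx, the lectin chaperone calnexin, fell by 0.45 ± 0.10 in the authors' deposited table (BH-adjusted p = 0.00021). Of 13 plasma cell markers, 11 were higher in the combination, 2 with palbociclib and 0 with ruxolitinib, and plasma cells are known for high Xbp1. The immunoglobulin light chain gene Igkc was at 19455, 778 and 485747 normalised reads with palbociclib, ruxolitinib and the combination, against 3954 with vehicle. The markers Derl3, Fkbp11 and Txndc5 are themselves ER folding genes. The part of plasma cell RNA in the rise of Dnajb9 and of these ER genes was not tested.

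Of 45 J-domain genes, 41 were tested in the combination, where 5 were higher, 3 were lower and 33 did not pass. The share called, 19.5%, was under the 23.0% of all genes. Dnajb6, which keeps polyglutamine proteins from aggregating, had the smallest adjusted p of all members. It was at 2614 normalised reads with palbociclib (2421 to 2823), 3116 with ruxolitinib (2888 to 3363) and 2379 with the combination (2201 to 2572), against 3280 with vehicle (3041 to 3539). The intervals with palbociclib and the combination lie below both others, though palbociclib and ruxolitinib did not differ for Dnajb6 in the test between arms given below. In the authors' deposited tables Dnajb6 fell by 0.33 ± 0.08 with palbociclib and by 0.46 ± 0.08 with the combination (BH-adjusted p = 0.00189 and 8.72e-07), and was at -0.07 ± 0.08 with ruxolitinib (BH-adjusted p = 0.801). Dnajb2, a J-domain protein that carries ubiquitin-interacting motifs and is known from neurons, was at 654 normalised reads with palbociclib (516 to 830), 498 with ruxolitinib (392 to 632) and 522 with the combination (411 to 664), against 301 with vehicle (237 to 383). The intervals of all 3 drug groups lie above that of vehicle. Dnajb2 rose by 1.12 ± 0.25 with palbociclib and by 0.79 ± 0.25 with the combination in the authors' deposited tables, and was at 0.73 ± 0.25 with ruxolitinib (BH-adjusted p = 0.000533, 0.011 and 0.0901). Dnajb4, a cytosolic partner of HSP70, was at 1002, 859 and 1348 normalised reads with palbociclib, ruxolitinib and the combination, against 912 with vehicle, and Dnajc4 at 213, 223 and 295, against 190. In the combination they rose by 0.56 ± 0.20 and 0.64 ± 0.22 in the authors' deposited table (BH-adjusted p = 0.026 and 0.0253). After rescaling to equal summed levels they were at 0.48 and 0.56 and neither passed (BH-adjusted p = 0.0579 and 0.0517). Dnajc13, which uncoats clathrin on endosomes, was at 2922, 3230 and 2480 normalised reads with palbociclib, ruxolitinib and the combination, against 3704 with vehicle. It fell by 0.58 ± 0.17 in the combination in the authors' deposited table (BH-adjusted p = 0.00715). The main heat-inducible J-domain partners of HSP70, Dnaja1 and Dnajb1, did not pass. Dnaja1 was at 9772, 9638 and 7919 normalised reads with palbociclib, ruxolitinib and the combination, against 7910 with vehicle, and Dnajb1 at 2648, 2669 and 2360, against 2447.

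Small heat shock proteins were scarce in these cells. Of 8 genes, 6 were tested in the combination, where 2 were higher and 4 did not pass, beside 12.9% of all genes higher. Hspb11, whose product is known as IFT25, a subunit of the transport trains of cilia, was at 159 normalised reads with palbociclib (118 to 215), 143 with ruxolitinib (106 to 193) and 302 with the combination (226 to 405), against 108 with vehicle (79.6 to 146). The combination interval lies above the other 3. In the test between arms given below, Hspb11 did not differ between the combination and palbociclib (BH-adjusted p = 0.827). Hspb11 rose by 1.49 ± 0.31 in the combination in the authors' deposited table (BH-adjusted p = 6.86e-05). Hspb8, which works with Bag3 in chaperone-assisted autophagy, was at 15.5, 11.1 and 27.8 normalised reads with palbociclib, ruxolitinib and the combination, against 2.74 with vehicle, and rose by 3.34 ± 1.02 in the combination in the authors' deposited table (BH-adjusted p = 0.00825). Its vehicle level corresponds to a modelled 9.19 reads over 3 libraries. Hspb1, or HSP27, had a base mean of 2.23 and an unadjusted p of 1 in the combination.

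The arms were then compared with each other. The difference of deposited log2 fold changes was divided by its error, the square root of both squared errors added, in a 2-sided test, and adjusted over 15448 genes; the shared vehicle libraries make this error too wide. For the combination minus ruxolitinib, 2 of 69 members differed, beside 1.62% of all genes (1.32% higher and 0.298% lower). Dnajb9 was higher by 1.17 ± 0.33 (log2, SE; adjusted p = 0.0326) and Dnajb6 lower, at -0.39 ± 0.11 (BH-adjusted p = 0.0395). Hspa4 was next, at -0.73 ± 0.22 (BH-adjusted p = 0.0502). With the variances of these groups recovered from the errors, where that of vehicle cancels, 15 members differed. Of these 5 were higher and 10 lower, beside 20.4% of all genes. For the combination minus palbociclib, 0 of 69 differed, beside 0.0129% of all genes, and 5 had an unadjusted p under 0.05. Hsph1 and Hspa4 were at -1.12 ± 0.34 and -0.55 ± 0.22 (BH-adjusted p = 0.612 and 0.827), and with the recovered variances they were the 2 members that differed (BH-adjusted p = 0.00229 and 0.0318), beside 2.19% of all genes. Hspd1, Dnajb9 and Hspb11 did not differ (BH-adjusted p = 0.827 for each, and 0.0966, 0.0722 and 0.0722 with the recovered variances). Between the combination and palbociclib Dnajb6 was at -0.14 with a 95% interval from -0.36 to 0.08, and Hspa12b was at 0.09 with an interval from -0.73 to 0.90. For palbociclib minus ruxolitinib 0 of 69 differed, beside 0.142% of all genes, with 1 unadjusted p under 0.05; with the recovered variances 0 differed, beside 1.18% of all genes. Set against the added fold changes of both drugs, the combination differed for 0 of 69, beside 0.0712% of all genes, with 6 unadjusted p under 0.05; with the recovered variances 0 differed, beside 2.36%. Hsph1 was at -1.06 ± 0.42, Dnajb2 at -1.05 ± 0.43 and Hspa4 at -0.64 ± 0.27 against that sum (BH-adjusted p = 0.376, 0.388 and 0.388).

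**Figure D5:**
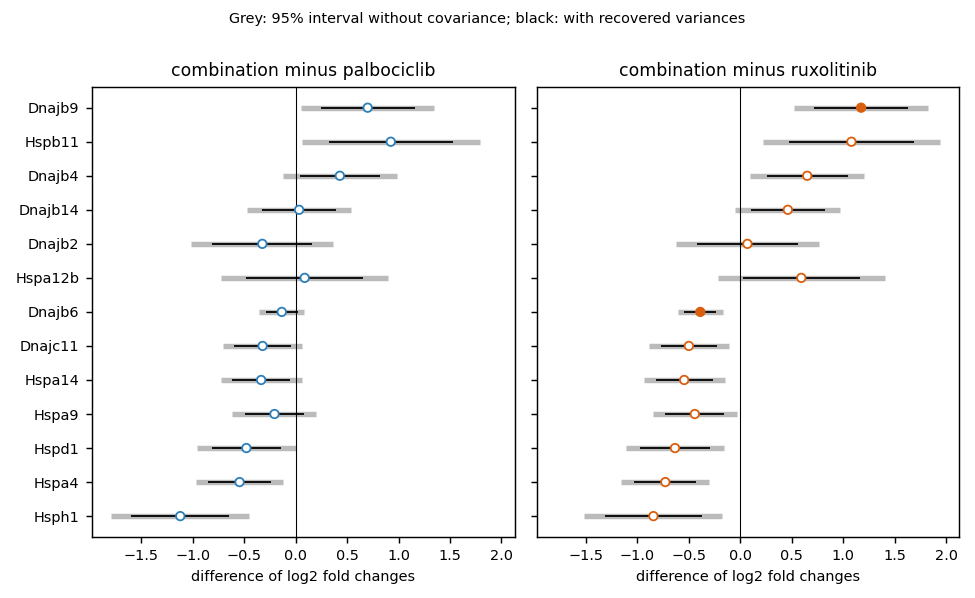
Difference of log2 fold changes, the combination minus palbociclib (left) and minus ruxolitinib (right), for 13 members called in the combination, without Hspa1a, Hspa1b, Hspb8, Dnajc4 and Dnajc13. Grey bars are 95% intervals without the covariance from the shared vehicle libraries, black bars those with recovered variances, and filled points, Dnajb9 and Dnajb6 at the right, have an adjusted p under 0.05 with the wider error.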

How the data were processed

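Values used were 3 tables of the authors' DESeq2 fit, each setting 1 drug arm against vehicle. Per the submitters' processing notes, the build was GRCm38 and the tools the authors used included HISAT2 2.0.1, featureCounts 2.0.0, SAMtools 1.10 and fastp 0.20.0, with no settings given here. The deposited signal is the base mean, which the authors made as an average of counts divided by size factors across every fitted library. The log2 fold changes and their errors were deposited by the authors unshrunken, and the deposited score is the Wald statistic, their ratio. The p-value and its Benjamini-Hochberg value after independent filtering are the authors', as deposited.

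Size factors of 24 libraries (12 of these groups and 12 others) were read from genes with 1 read in all. The vehicle level and dispersion of a gene were solved from the 3 errors, which succeeded for 99.9% of 19228 genes with a combination test. Python 3.11.15, numpy 2.4.6, pandas 2.3.3, scipy 1.17.1 and matplotlib 3.10.9 were used, and the methods were tested on simulated data. Levels cover counting error and the modelled spread; the floor is 3 reads over a group.

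Members, gene lists and tests were chosen with earlier results of these data known, and the assignment to families and compartments was made with the values in view. Named members are Hsf1, the main HSP70, HSP90, HSP110, HSP60 and CCT genes, Hspb1, Dnaja1 and Dnajb1, the 12 smallest p and 8 largest fold changes among those passing in a comparison, and members whose difference between arms passed. Hspa4l, Hspa12b with ruxolitinib, Dnajc2 and Cct6b were named after their values were seen where the rule did not take them. Of the lists of chaperone partners, ER folding genes, stress genes and clients, those that passed are named, except 1 that is not reported here; cell type and sex-linked markers are given as counts and sums. Gene positions are those of GENCODE release M21, which holds all 83 members. Whether featureCounts used strand is not given in the sources used here, so genes that overlap on opposite strands are uncertain.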

Additional observations from a re-analysis of the deposited data

How the results depend on the processing

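The comparisons with vehicle kept their total counts of calls within 1.5 times under no independent filtering, a base mean of at least 50, an adjusted p under 0.01, centring on the median gene, equal summed levels and keeping numbered pseudogenes as members, the last chosen after seeing the data; the combination ran from 13 to 23 calls. By direction its 8 higher and 10 lower became 4 and 9 at an adjusted p under 0.01, and 5 and 18 at equal summed levels. The last setting lowers the fold change of every gene in the combination alike. Of the members named, 7 calls were lost at an adjusted p under 0.01, 3 at equal summed levels and 2 without filtering, and none changed sign. For the combination minus palbociclib, where 0 members differed, 2 differed at a correlation of 0.5 between fold changes and 2 with recovered group variances. For the combination minus ruxolitinib, where 2 differed, 15 differed at a correlation of 0.5, 15 with recovered group variances and 0 at an adjusted p under 0.01. These settings change the error or the threshold by construction. Levels solved from 2 of the 3 errors left the 95% interval in 3, 2 and 4 of 75 members without the palbociclib, ruxolitinib or combination error; Hspa5 gave 134 normalised reads with vehicle in the last case, in place of 20328. No paired analysis was possible because the tables carry no values per sample, and leaving out each replicate in turn could not be run for the same reason. Depth limits Hspa1a, Hspb8 and Cct6b, which had few reads in at least 1 group.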

Other observations

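Some chaperone genes were barely read, among them Hspb2, and Hspb6 and Dnajc28, given last, were at higher levels. Hspb2, which overlaps Cryab and shares 30.2% of its exon bases with it on the other strand, had a base mean of 3.49 and did not pass in the combination in the authors' deposited table (BH-adjusted p = 0.113). Its level was 5.23 normalised reads with the combination, against 0.165 with vehicle, which is under the floor of 0.895 for 3 reads over the group, so no fold is given. Cryab, a small heat shock protein of lens and muscle, was at 26.0, 2.84 and 70.0 normalised reads with palbociclib, ruxolitinib and the combination, against 3.94 with vehicle. It passed in none of the 3 comparisons, with log2 fold changes of 2.72 ± 1.84, -0.47 ± 1.89 and 4.15 ± 1.83 in the authors' deposited tables (BH-adjusted p = 0.405, 0.963 and 0.0836). Hspb6, a small heat shock protein of muscle, was at 99.2, 117 and 139 normalised reads with palbociclib, ruxolitinib and the combination, against 138 with vehicle, and passed in none. Dnajc28, a J-domain protein, was at 336, 239 and 373 normalised reads with palbociclib, ruxolitinib and the combination, against 357 with vehicle, and did not pass with ruxolitinib, at -0.57 ± 0.21 in the authors' deposited table (BH-adjusted p = 0.113).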
